A study of Mus musculus with 6 samples.

Results

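The pore-forming subunits of voltage-gated calcium channels are encoded by the Cacna1 genes, and their RNA was examined in pools of preoptic area neurons that responded to cooling or did not. A gene belonged to the family if its symbol was Cacna1 followed by a single letter, which 9 of the 9583 genes in the deposited table met. These are Cacna1a, Cacna1b, Cacna1c, Cacna1d, Cacna1e, Cacna1g, Cacna1h, Cacna1i and Cacna1s. Cacna1f, which the naming rule would also take, was not analysed here.

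The neurons were dissociated from the preoptic area of the hypothalamus of naive wild-type C57Bl/6J mice, 6 to 14 weeks old by the labels, loaded with the ratiometric calcium dye Fura-2 and cooled to 10°C. The cold-sensitive pools held neurons among the strongest 7% by response to cooling, and the cold-insensitive pools held neurons among the weakest 14%. Each type was collected as 3 biological replicates of about 100 to 200 neurons, and by the methods both types came from the same coverslips within a replicate. Each replicate was pooled from several neuron isolations. The integrity of the RNA varied widely, and the methods do not give it for single pools. Every animal was of the same strain and genotype, and by the methods mice of both sexes were used. The groups were defined by the recorded response to cooling, which need not be the only difference between them. The pools were thus sorted by a calcium signal, and channels of this family carry calcium into the cell. By the methods the imaging analysis also kept only cells whose calcium signal rose in a depolarizing high-potassium solution. The effect of that filter on the members was not tested.

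A voltage-gated calcium channel opens when the membrane depolarizes and lets calcium into the cell, where it triggers transmitter release, opens other channels and reaches the nucleus as a signal. The pore-forming subunit, called alpha1, contains the voltage sensors, the gate and the selectivity filter, and by itself sets the class of current. The L-type (Cacna1c, Cacna1d, Cacna1s), P/Q-type (Cacna1a), N-type (Cacna1b) and R-type (Cacna1e) channels need stronger depolarization than the T-type channels. The T-type channels (Cacna1g, Cacna1h, Cacna1i) open near the resting potential and support burst firing and rebound spikes. Hypothalamic neurons are known to use both kinds.

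The selectivity filter shows the split between the T-type genes and the others in the coding sequence itself. Each repeat of the protein contributes a pore loop with an acidic residue that binds calcium. In the third loop the codon of that residue, printed in capitals, reads glutamate in the 5 genes of the high-voltage classes shown and aspartate in the 3 T-type genes. The search took only glutamate or aspartate at this position. It found the stretch in 1 of 4 coding transcripts of Cacna1i, 3 of 5 of Cacna1h, 5 of 9 of Cacna1b and 3 of 4 of Cacna1e. For the other genes shown it was found in every coding transcript. The stretches of 33 coding bases around that codon come from the GENCODE annotation of GRCm38 and are written 5′ to 3′ on the coding strand. They are shown because the marked codon sets the T-type genes apart without any expression value. It does not separate the P/Q-, N-, R- and L-type genes from each other.
Cacna1a (P/Q): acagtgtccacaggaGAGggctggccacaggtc
Cacna1b (N): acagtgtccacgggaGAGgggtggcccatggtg
Cacna1e (R): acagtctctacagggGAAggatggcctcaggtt
Cacna1c (L): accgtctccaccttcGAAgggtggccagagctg
Cacna1d (L): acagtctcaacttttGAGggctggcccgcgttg
Cacna1g (T): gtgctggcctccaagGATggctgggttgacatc
Cacna1h (T): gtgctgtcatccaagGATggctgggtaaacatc
Cacna1i (T): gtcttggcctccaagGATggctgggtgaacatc
The T-type stretches each lie in a single exon, at chr11:94426456-94426488 on the minus strand for Cacna1g, chr17:25383493-25383525 on the minus strand for Cacna1h and chr15:80376792-80376824 on the plus strand for Cacna1i. Those of the other 5 genes are split by an intron, so that their genomic span is longer than the stretch. It runs over chr8:84581323-84583562 in Cacna1a on the plus strand, chr2:24650625-24651109 in Cacna1b on the minus strand and chr1:154443999-154444900 in Cacna1e on the minus strand. Of the L-type genes shown, it runs over chr6:118654452-118656141 in Cacna1c and chr14:30099240-30100725 in Cacna1d, both on the minus strand. The genes themselves are long and lie on 8 chromosomes, with only Cacna1e and Cacna1s sharing chromosome 1. In GRCm38 the longest, Cacna1c, covers chr6:118587240-119196418, and the shortest, Cacna1h, chr17:25374285-25433783.

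None of the 9 genes differed between cold-sensitive and cold-insensitive neurons beyond the error of the test. Counts were compared with the quasi-likelihood F-test of edgeR, a model that takes the scatter between replicates into account, and the p-values were adjusted over all 9583 genes by the method of Benjamini and Hochberg, with 0.05 as the limit for a call. The number of family members called was 0 of 9, and 0 of 9 had an unadjusted p under 0.05. DESeq2 and limma also called 0, with Cacna1h the only member under 0.05 before adjustment in DESeq2 and none in limma. Of all genes, 32 (0.334%) were called higher in cold-sensitive neurons and 80 (0.835%) lower, or 112 (1.17%) in either direction, and 1025 (10.7%) had an unadjusted p under 0.05. A share of 1.17% of 9 genes is less than 1 gene, so the count of 0 is near the background. The libraries held 3316441 to 6818554 counts for cold-sensitive neurons and 5276233 to 5712983 for cold-insensitive neurons. In bulk samples, fewer cells that express a gene and less RNA per cell cannot be told apart.

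Values per library are given in RPM, reads scaled to a common library size after normalization by TMM, and the replicates are listed in the order 1 to 3. The fold changes are log2 of cold-sensitive over cold-insensitive neurons with the standard error (SE) of the fit and its 95% interval. The exact permutation test named beside them is two-sided, compares mean RPM between the types, and cannot give a p under 0.1 with 3 libraries against 3.

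Cacna1a, Cacna1b and Cacna1e encode the channels best known from nerve terminals and dendrites, and all were among the abundant members. Cacna1a, whose P/Q-type channel triggers transmitter release at most fast central synapses, had 184, 117 and 111 RPM in cold-sensitive neurons, against 129.6, 166 and 146 RPM in cold-insensitive neurons. Cold-sensitive replicate 1 was the highest of all 6 libraries and the other cold-sensitive libraries were the lowest, so the types overlapped. The means were 138 ± 40.8 and 147 ± 18.2 RPM (SD, n = 3 each), with a log2 fold change of -0.10 (SE 0.27, interval -0.67 to 0.47, edgeR adjusted p = 0.954, exact permutation p = 0.7).

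Cacna1b, the N-type channel that shares the terminal with P/Q-type channels and is the target of omega-conotoxin, had 214, 171 and 129 RPM in cold-sensitive neurons and 187, 183 and 208 RPM in cold-insensitive neurons. The cold-sensitive libraries held both the highest and the lowest value, and the cold-insensitive libraries lay between them. Between the types the log2 fold change was -0.17 (SE 0.25, interval -0.69 to 0.35, edgeR adjusted p = 0.895, exact permutation p = 0.5).

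Cacna1e, the R-type channel found on dendrites, cell bodies and some terminals, had more reads than any other member in each of the 6 libraries. It had 384, 362 and 414 RPM in cold-sensitive neurons and 368, 434 and 465 RPM in cold-insensitive neurons. The ranges overlapped, with the 2 highest values in cold-insensitive neurons. It was also the most precisely measured member, and its log2 fold change was -0.13 (SE 0.21, interval -0.56 to 0.30, edgeR adjusted p = 0.907, exact permutation p = 0.3). As a ratio the interval ran over 0.679 to 1.23, so that a difference of 2-fold in either direction lay outside it.

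The L-type genes encode the dihydropyridine-sensitive channels of cell bodies and dendrites. Cacna1c, the major L-type gene of brain and heart, had 102, 104 and 109.5 RPM in cold-sensitive neurons and 150.1, 98.0 and 53.6 RPM in cold-insensitive neurons. The cold-sensitive libraries lay close together within the wide range of the cold-insensitive ones. The coefficient of variation was 3.85% in cold-sensitive neurons, against 48.0% in cold-insensitive neurons, whereas the mean levels of 105 and 101 RPM hardly differed. The log2 fold change was 0.06 (SE 0.33, interval -0.62 to 0.74, edgeR adjusted p = 0.973, exact permutation p = 0.7). No test of the spread was made, and it rests on 3 libraries a type.

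Cacna1d, whose L-type channel opens at lower voltages than that of Cacna1c and takes part in pacemaking, had 79.1, 37.2 and 67.1 RPM in cold-sensitive neurons, against 92.7, 36.8 and 50.5 RPM in cold-insensitive neurons. Replicate 1 was the highest and replicate 2 the lowest of both types. Its log2 fold change was 0.03 (SE 0.41, interval -0.82 to 0.88, edgeR adjusted p = 0.990, exact permutation p = 0.9). Its exons share 589 bases, or 4.67% of their length, with Chdh on the opposite strand. As reads were counted without regard to strand, those from this stretch cannot be assigned to either gene.

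Cacna1s, known as the voltage sensor of skeletal muscle, was the member with the lowest mean RPM in both types. It had 8.11, 10.8 and 13.2 RPM in cold-sensitive neurons, from counts of 28, 35 and 88, and 10.7, 4.97 and 7.46 RPM in cold-insensitive neurons, from counts of 63, 29 and 38. The 2 highest values were in cold-sensitive neurons, and the ranges overlapped. With a log2 fold change of 0.47 and the widest interval of the family (SE 0.73, -1.03 to 1.98, edgeR adjusted p = 0.902, exact permutation p = 0.2), a 2-fold difference in either direction lay inside the interval.

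**Figure D1:**
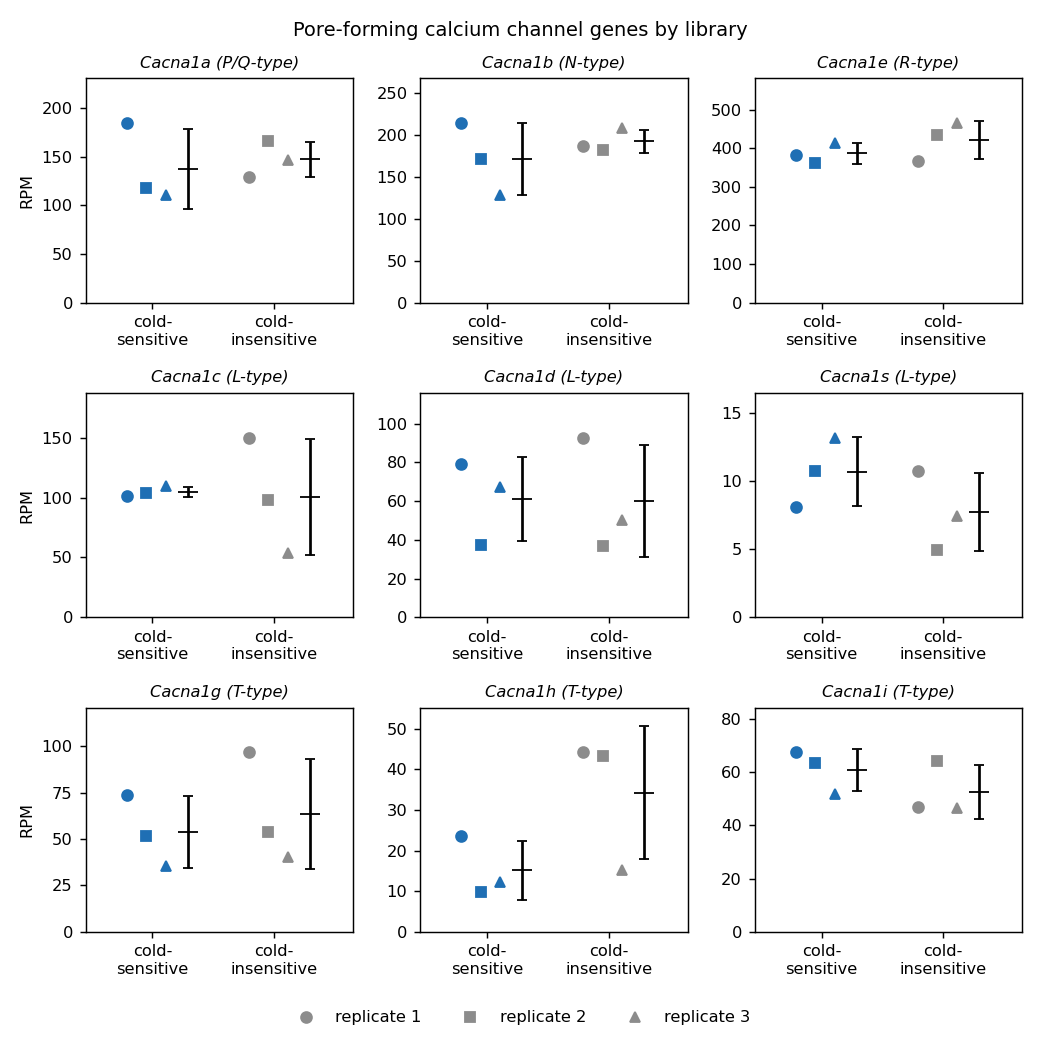
RPM of the 9 pore-forming genes in each library, on a separate axis from 0 for each gene, with cold-sensitive neurons in blue left of cold-insensitive neurons in grey. Markers stand for replicates 1 to 3 and the black bars for the mean and SD (n = 3). The types overlap in all 9 panels, and the largest gap between the means relative to the level is that of Cacna1h, at 15.1 and 34.2 RPM.

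The T-type genes included the largest fold change of the family, that of Cacna1h. Cacna1g, prominent in thalamic relay neurons and their rebound bursts, had 73.8, 51.7 and 35.5 RPM in cold-sensitive neurons and 96.6, 53.6 and 40.3 RPM in cold-insensitive neurons. Replicates 1, 2 and 3 ranked alike in both types, and within every replicate number the cold-sensitive library was the lower. The log2 fold change was -0.25 (SE 0.41, interval -1.10 to 0.61, edgeR adjusted p = 0.910, exact permutation p = 0.6), and -0.21 with the replicate block (edgeR adjusted p = 0.901).

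Cacna1h, the T-type gene prominent in sensory neurons, had 23.5, 9.84 and 12.1 RPM in cold-sensitive neurons, from counts of 81, 32 and 81. In cold-insensitive neurons it had 44.1, 43.2 and 15.3 RPM, from counts of 259, 252 and 78. Cold-insensitive replicates 1 and 2 stood above the 4 other libraries, whereas cold-insensitive replicate 3 lay within the cold-sensitive range. Within every replicate number the cold-sensitive library was the lower, as for Cacna1g. With 3 replicate numbers a single direction can easily arise without a difference. The share of all genes with a single direction was not computed. The means were 15.1 ± 7.29 and 34.2 ± 16.4 RPM (SD, n = 3 each), a ratio of 0.442 in the fit. The log2 fold change of -1.18 (SE 0.61, interval -2.44 to 0.08) did not pass the test (unadjusted p = 0.0655, edgeR adjusted p = 0.512), nor did the difference in mean RPM (exact permutation p = 0.2). It ranked 1226 of 9583 genes by p. Among the 17 alternative settings the log2 fold change stayed negative, from -1.64 without cold-sensitive replicate 1 to -0.95 without cold-sensitive replicate 2, and the lowest adjusted p was 0.329. The exons share 158 bases (1.62%) with Tpsg1 on the opposite strand.

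Cacna1i, found in the thalamic reticular nucleus and a few other regions, had 67.5, 63.3 and 52.0 RPM in cold-sensitive neurons and 47.0, 64.4 and 46.7 RPM in cold-insensitive neurons. Cold-insensitive replicate 2 fell among the cold-sensitive libraries, and the other cold-insensitive libraries lay below them. The log2 fold change was 0.21 (SE 0.38, interval -0.57 to 0.99, edgeR adjusted p = 0.920, exact permutation p = 0.3).

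Across the family, 4 of the 9 log2 fold changes were positive and 5 negative, with a median of -0.10 beside 0.00 for all genes. The median size was 0.17, against 0.34 for all genes, and 8 of 9 members had a size under 0.5, against 64.9% of all genes. The interval lay within 2-fold in either direction for Cacna1a, Cacna1b, Cacna1c, Cacna1d, Cacna1e and Cacna1i, 6 of 9, against 29.9% of all genes. The median SE was 0.38 for members and 0.46 for all genes, so the members were also measured somewhat more precisely. For Cacna1g, Cacna1h and Cacna1s a difference of 2-fold in at least 1 direction was not excluded by the interval. The types overlapped for 9 of 9 members and for 84.0% of all genes.

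**Figure D2:**
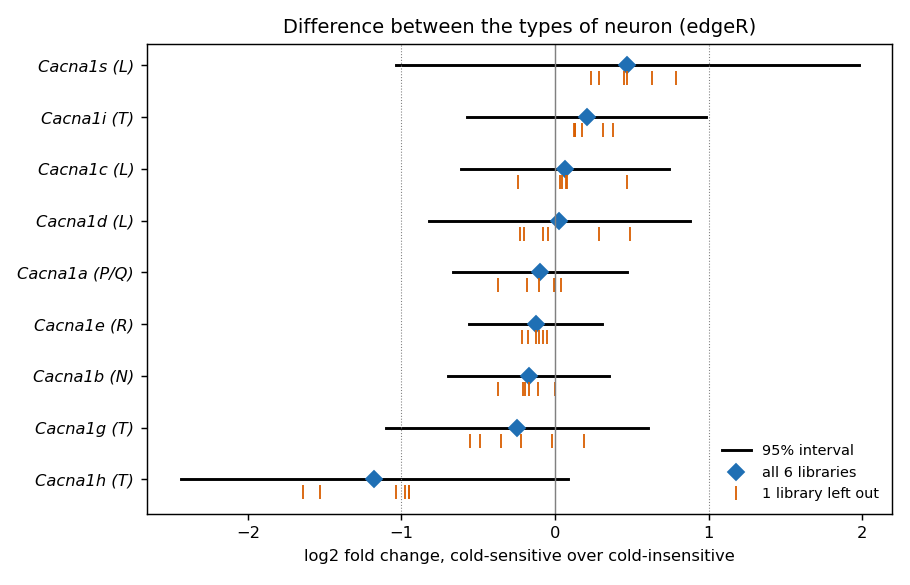
Log2 fold change of each member, cold-sensitive over cold-insensitive neurons, from edgeR. Diamonds are the values over all 6 libraries, black lines the 95% intervals, orange ticks the values with 1 library left out, and dotted lines mark 2-fold. Every interval includes 0, and that of Cacna1h, from -2.44 to 0.08, reaches farthest to the left.

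**Figure D3:**
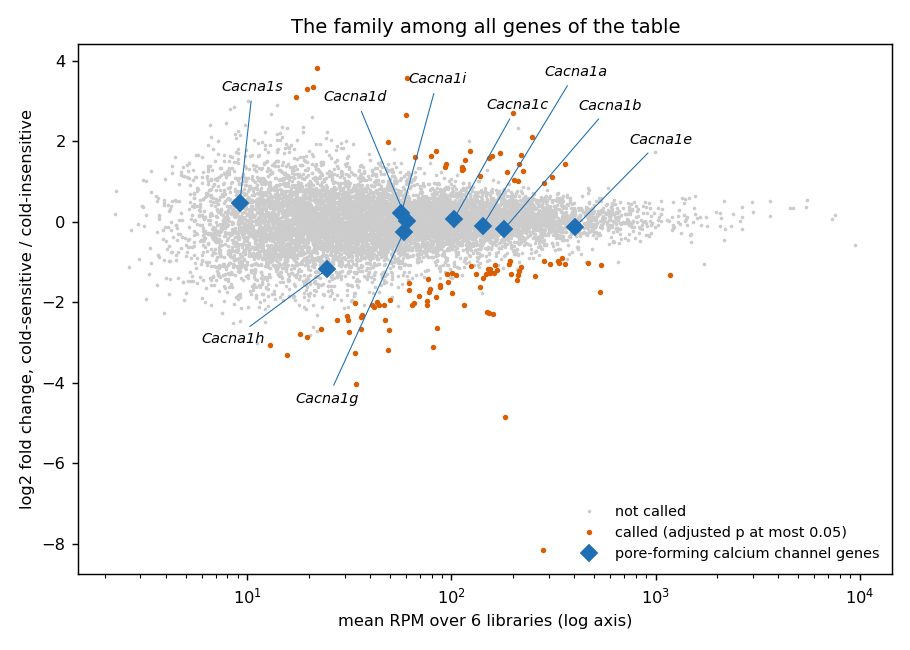
Log2 fold change, cold-sensitive over cold-insensitive neurons, against mean RPM over the 6 libraries on a log axis, for all 9583 genes, with the 112 called genes in orange and the 9 members as blue diamonds. The members lie inside the grey cloud at their levels, and Cacna1h is the only member beyond a log2 size of 0.5.

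Levels of different genes were compared per kilobase of merged exon, since longer genes collect more reads. In cold-sensitive neurons the order by mean was Cacna1b at 17.2 RPM per kilobase, Cacna1e at 15.3 and Cacna1a at 12.05, then Cacna1i at 6.18, Cacna1g at 5.29, Cacna1c at 4.96 and Cacna1d at 4.84, and last Cacna1s at 1.63 and Cacna1h at 1.55. Over the 3 libraries the ranges of neighbours were apart only below Cacna1a and below Cacna1d, which left 3 tiers. In cold-insensitive neurons the order was Cacna1b at 19.4, Cacna1e at 16.7, Cacna1a at 12.9, Cacna1g at 6.26, Cacna1i at 5.35, Cacna1d and Cacna1c both at 4.75, Cacna1h at 3.50 and Cacna1s at 1.18. There the ranges were apart below Cacna1e and below Cacna1a and overlapped for all other neighbours. The order within each tier depended on the length used. Per kilobase of the longest transcript, Cacna1e came first at 25.9 RPM per kilobase in cold-sensitive neurons, against 28.3 in cold-insensitive neurons, ahead of Cacna1b at 17.6 and 19.8 and Cacna1a at 17.4 and 18.6. In cold-sensitive neurons Cacna1c then led the middle tier at 7.98 RPM per kilobase, Cacna1i came last in it at 6.23, and Cacna1h, at 1.84, stood above Cacna1s, at 1.71.

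The make-up of the family by channel class differed between the types by less than the spread of the libraries. Of the summed RPM per kilobase, the N-type gene took 24.8 ± 3.27% in cold-sensitive neurons, against 26.0 ± 3.35% in cold-insensitive neurons, and the R-type gene 22.6 ± 4.03% and 22.5 ± 4.01%. The P/Q-type gene took 17.2 ± 2.22% in cold-sensitive neurons, against 17.3 ± 2.73% in cold-insensitive neurons. The 3 T-type genes together took 18.7 ± 2.13% and 20.0 ± 4.73%, and the 3 L-type genes 16.7 ± 3.09% and 14.1 ± 5.28% (SD, n = 3 each). Every difference between the types was smaller than the larger of the 2 SDs, and no p was computed for these sums. The whole family summed to 81.7, 63.9 and 61.6 RPM per kilobase in cold-sensitive neurons and 79.6, 74.7 and 70.1 in cold-insensitive neurons.

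**Figure D4:**
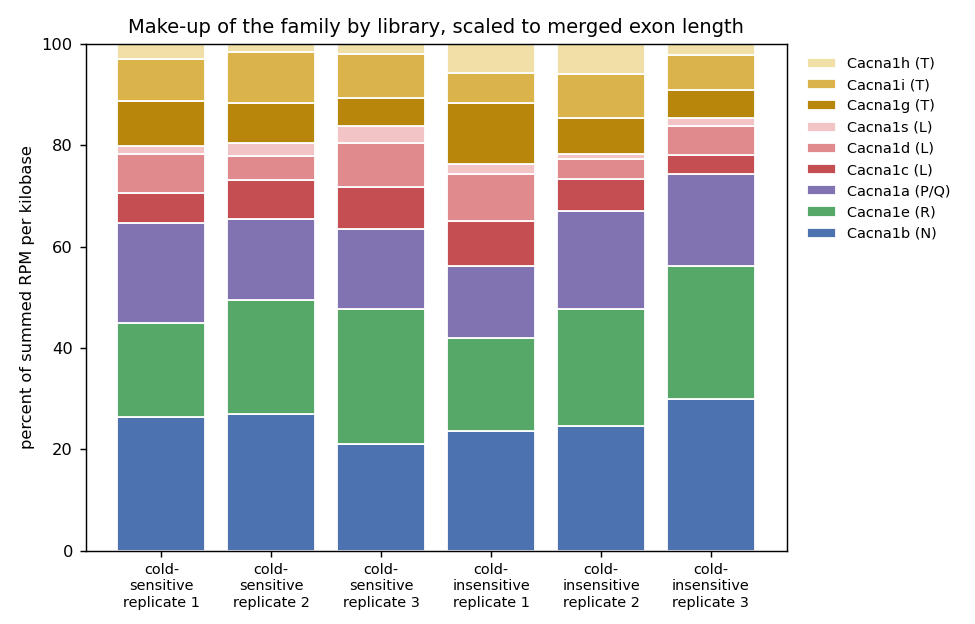
Share of each gene in the summed RPM per kilobase of merged exon, in percent, with the 3 cold-sensitive libraries left of the 3 cold-insensitive ones. Cacna1b, Cacna1e and Cacna1a form the larger part of every bar, and Cacna1h takes 1.58 to 2.94% in cold-sensitive and 2.24 to 5.92% in cold-insensitive libraries.

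Within the T-type genes, Cacna1h made up 14.5, 8.05 and 12.4% of the summed RPM per kilobase in cold-sensitive neurons and 24.0, 27.2 and 15.3% in cold-insensitive neurons. Those shares did not overlap, although the nearest, 14.5 and 15.3%, were close, and the value is a description without a test. Cacna1i took 48.4 ± 6.13% in cold-sensitive neurons, against 37.2 ± 10.7% in cold-insensitive neurons, and Cacna1g 39.9 ± 4.60% and 40.6 ± 9.20%. Within the L-type genes, Cacna1c took 44.0 ± 6.73% and 44.3 ± 11.4%, Cacna1d 41.5 ± 9.98% and 44.3 ± 8.58%, and Cacna1s 14.5 ± 3.88% and 11.4 ± 3.04%, with cold-sensitive neurons given before cold-insensitive ones.

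Pairs of members varied across the 6 libraries to different degrees, described here by Pearson's r of log2(RPM + 1) over libraries that also share depth and replicate. Cacna1a and Cacna1b had the highest value, 0.77, followed by Cacna1g and Cacna1h at 0.68. Cacna1a and Cacna1s had the lowest, -0.79, and Cacna1c and Cacna1e had -0.78. Of all other genes, the 3 whose pattern was most like that of Cacna1h were Clstn1 (r = 0.990), Kcnj10 (0.988) and Aes (0.987). They were picked for the highest r among all genes over only 6 libraries, so high values partly follow from that search. Clstn1 had 256, 213 and 222 RPM in cold-sensitive neurons and 332, 320 and 239 RPM in cold-insensitive neurons. Neither Clstn1 (log2 fold change -0.37, edgeR adjusted p = 0.618) nor Aes (-0.41, edgeR adjusted p = 0.687) was called. Kcnj10, an inward rectifier potassium channel known from glia, had 14.8, 1.54 and 1.35 RPM in cold-sensitive neurons and 60.0, 48.5 and 6.09 RPM in cold-insensitive neurons. Like Cacna1h it was high in cold-insensitive replicates 1 and 2, and it was not called (log2 fold change -2.72, edgeR adjusted p = 0.173).

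The pore-forming subunit works with auxiliary subunits and cytosolic partners, which were counted from lists of known members. Of the alpha2delta subunits, which raise the number of channels at the surface and at terminals, 3 of 4 were in the table, and 1 rose, 0 fell and 2 did not pass, with a median log2 fold change of 0.99. The gene that rose was Cacna2d1, the target of gabapentin, with 605, 532 and 435 RPM in cold-sensitive neurons against 171, 182 and 232 RPM in cold-insensitive neurons. All 3 cold-sensitive libraries lay above all 3 cold-insensitive ones. The log2 fold change was 1.42 (SE 0.23, edgeR adjusted p = 0.00118), and the call was kept in 17 of 17 alternatives. Cacna2d2 had 123, 45.2 and 85.5 RPM in cold-sensitive and 64.6, 57.9 and 5.50 RPM in cold-insensitive neurons (log2 fold change 0.99, edgeR adjusted p = 0.555).

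Of the cytosolic beta subunits, which bring the pore to the membrane and tune its gating, 4 of 4 were in the table and 0 passed in either direction, with a median log2 fold change of -0.29. Cacnb4, the most abundant, had 108, 112 and 133 RPM in cold-sensitive neurons and 40.0, 76.8 and 85.0 RPM in cold-insensitive neurons. Its ranges did not overlap, yet the log2 fold change of 0.80 was not called (SE 0.32, unadjusted p = 0.0206, edgeR adjusted p = 0.334). Cacnb1 averaged 58.8 and 72.9 RPM in cold-sensitive and cold-insensitive neurons (log2 fold change -0.31, edgeR adjusted p = 0.861).

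Of the gamma family, 6 of 8 genes were in the table, and 0 rose, 2 fell and 4 did not pass, with a median log2 fold change of -0.03. Both genes that fell carry calcium channel names but are known as auxiliary subunits of AMPA-type glutamate receptors. Cacng3 had 24.9, 31.4 and 22.6 RPM in cold-sensitive neurons and 119, 114 and 83.3 RPM in cold-insensitive neurons. Cacng4 had 40.3, 32.3 and 20.4 RPM in cold-sensitive neurons and 105, 133 and 124 RPM in cold-insensitive neurons. For both genes every cold-sensitive library lay below every cold-insensitive one. The log2 fold changes were -2.01 (SE 0.37, edgeR adjusted p = 0.00539) and -1.97 (SE 0.35, edgeR adjusted p = 0.00447). Without cold-insensitive replicate 2 neither passed, at -1.94 (adjusted p = 0.0641) for Cacng3 and -1.89 (adjusted p = 0.0594) for Cacng4.

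The remaining partner lists held no called gene. Of the RGK GTPases and Stac proteins, which inhibit channels or regulate their traffic and inactivation, 4 of 7 were in the table, 0 passed, and the median log2 fold change was -0.60. Their most abundant members were Rrad, at a mean of 128 RPM in cold-sensitive and 157 RPM in cold-insensitive neurons, and Gem, at 57.2 and 113 RPM (log2 fold change -0.98, unadjusted p = 0.00979, edgeR adjusted p = 0.246). Of the presynaptic partners that hold channels near release sites, 15 of 15 were in the table and 0 passed, with a median of 0.14. Before adjustment, 1 gene of this list was higher and 2 were lower at p under 0.05. Tspoap1, named after its values were seen, had the smallest p of the list. Its log2 fold change was -1.07 (edgeR unadjusted p = 0.000869, adjusted p = 0.0645), and it was not called. Snap25, a part of the fusion machinery, had a log2 fold change of 0.64 (edgeR adjusted p = 0.235), and Syt1, the calcium sensor of fast release, 0.20 (edgeR adjusted p = 0.849). Calmodulin and other calcium-binding regulators had 13 of 16 genes in the table, 0 passed, and their median was -0.26. Calm2, which encodes calmodulin, had a log2 fold change of -0.02. Of the calcium-activated potassium channels 2 of 9 were in the table, and Kcnma1 at -0.02 and Kcnn3 at -0.10 did not pass. With a few genes a list, these counts are read beside the shares of all genes called, 0.334% higher and 0.835% lower, and nothing particular to a list follows from them.

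The pools carried neuronal RNA, and they differed in RNA known from glia. All 12 neuronal markers listed were in the table and summed to 7430 to 9667 RPM in cold-sensitive and 7040 to 10340 RPM in cold-insensitive neurons, led by Map2 and Snap25. Thy1 was called lower, a call lost in 5 of 17 alternatives. Of the oligodendrocyte precursor markers 2 of 8 were in the table, Pdgfra and C1ql1, and they summed to 17.7 to 27.3 RPM in cold-sensitive and 339 to 370.2 RPM in cold-insensitive neurons, with Pdgfra called lower. Pdgfra carried that sum, and C1ql1 averaged 10.1 RPM in cold-sensitive neurons and 5.18 RPM in cold-insensitive neurons and was not called. Mbp, a myelin gene of the oligodendrocyte markers, had 419, 143 and 74.2 RPM in cold-sensitive neurons and 195, 48.7 and 16.1 RPM in cold-insensitive neurons. Its ranges overlapped and it was not called. Of the astrocyte markers 3 of 10 were in the table and summed to 129 to 169 RPM in cold-sensitive and 129 to 348 RPM in cold-insensitive neurons. Slc1a2, the highest of them, had 291 RPM in cold-insensitive replicate 1, beside 85.3 and 74.6 RPM in replicates 2 and 3. Cacna1c, Cacna1d, Cacna1g, Cacna1h and Cacna1s were also at their highest for the type in replicate 1. Cacna1h was nearly as high in replicate 2, at 43.2 RPM beside 44.1 RPM. Cacna1a and Cacna1e were at their lowest for the type in replicate 1, and Cacna1b and Cacna1i lay in between. Of the other astrocyte markers, Aldoc was highest in replicate 1 among the cold-insensitive libraries, at 47.7 RPM. Sox9, named after its values were seen, was lowest there, at 9.20 RPM beside 34.6 and 20.0 RPM in replicates 2 and 3. None of the 3 was called. Of the markers of ependymal cells 1 of 5 (Foxj1) was in the table, at 1.5 to 8.40 RPM in cold-sensitive and 1.37 to 22.4 RPM in cold-insensitive neurons, and of those of microglia, endothelium and mural cells 0 of 8, 0 of 8 and 0 of 6 were. The table leaves out any gene under 1 RPM in any library, so a marker outside it may be low in only a single pool. The part of these cells in the values of Cacna1h and the other members was not tested.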

How the data were processed

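The members and the lists were chosen with earlier results of these data known. RNA of 6 pools was sequenced as stranded, ribosome-depleted paired reads, which the authors trimmed with Trimmomatic 0.36, aligned with STAR 2.5.4b and counted per protein-coding gene with featureCounts (Subread 1.6.2), at settings that ignore strand. The deposited table holds raw counts and a normalized signal of the authors in RPM, without genes that had 0 counts or less than 1 RPM in some library. The deposited fold change (a ratio) and p-value columns of the authors, and their means per type, were not used. RPM computed here differed from the deposited signal by at most 0.827%. No column of per-sample values (0) was left unmatched.

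Counts were tested in R 4.3.3 with edgeR 4.0.16 (TMM, glmQLFit in its legacy form, glmQLFTest, prior count 0.125) with neuron type as the sole term. The methods name the same test and no further term. The common biological coefficient of variation was 42.2%. SE is the size of the log2 fold change over the square root of F. By the methods both types within a biological replicate came from the same coverslips, but the methods do not give the deposited replicate numbers. Libraries of a replicate number were taken as pairs only in the replicate block. The main test and the permutation test were unpaired. The deviations of libraries with the same replicate number correlated at only 0.0446 to 0.0586. The p-values measure the spread between these pools. In a simulation of this comparison over 9583 genes, 12% of genes changed by 2-fold were recovered, 64% at 4-fold, 94% at 8-fold and 96% at 16-fold. In that run 4 unchanged genes were called, and 0 genes were called when none was changed. The changed genes were drawn from the whole table, so these shares are not those of the family.

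Lengths, coordinates, overlaps and coding sequence came from GENCODE release M21 of GRCm38, in which 9483 of the 9583 symbols were found. Of the stretches of 75 bases in the exons of the pore-forming genes, 5.58% occurred in another coding gene for Cacna1d (Chdh only) and 1.00% for Cacna1h (Tpsg1 only), the genes whose exons they overlap. The share was 0.42% for Cacna1e and 0% for the other 6. The genes named are every member, each called gene and the 2 most abundant genes of each list, and the 3 genes most like the member of smallest p. Sox9 and Tspoap1 were named beside these after their values were seen. Alternatives covered scaling, filter, tool (DESeq2 1.42.0, limma 3.58.1 at pseudocounts of 1 and 0.5), dispersion, the replicate block, exon length and single libraries left out. A few items of the lists and sequences are not reported here.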

Additional observations from a re-analysis of the deposited data

How the results depend on the processing

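No member passed the threshold in any of the 17 alternatives, of which 6 left out a single library, and the lowest adjusted p was 0.329. DESeq2 gave no adjusted p for Cacna1s, so 152 values were compared, of which 143 kept their direction and 9 turned it. Scaling by library size alone moved the log2 fold change of Cacna1d to -0.000477. With single libraries left out it ran from -0.23 to 0.49 for Cacna1d, from -0.37 to 0.035 for Cacna1a, from -0.24 to 0.47 for Cacna1c and from -0.55 to 0.19 for Cacna1g. Cacna1h stayed negative throughout, from -1.64 to -0.95 over the single libraries. Its unadjusted p was 0.0431 with DESeq2 (adjusted 0.356), 0.0417 with the newer quasi-likelihood form of edgeR (adjusted 0.372), 0.0185 with cold-sensitive replicate 1 left out and 0.0207 with cold-insensitive replicate 3 left out. The replicate block gave -1.11 for Cacna1h (adjusted p = 0.511) and changed no call of a member. Per kilobase of the longest transcript, the N-type share became 19.1% in cold-sensitive neurons, against 20.1% in cold-insensitive neurons, the R-type share 28.8% in both, and the T-type share 15.7% in cold-sensitive neurons.

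Over all genes, the calls of 32 higher and 80 lower became 79 and 152 with DESeq2, 55 and 124 with the likelihood ratio test, 54 and 123 with the newer quasi-likelihood form and 40 and 114 with the replicate block. Leaving out cold-sensitive replicate 2 gave 8 and 27, and leaving out cold-insensitive replicate 2 gave 9 and 20. The other scalings moved the median log2 fold change of all genes by -0.0252 to 0.00906. The same alternatives for called list genes were chosen after seeing the data. Cacna2d1 ranged from 1.31 to 1.57, Cacng3 from -2.15 to -1.91 and Cacng4 from -2.21 to -1.73.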
